A study of Rattus norvegicus with 6 samples.

Results

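MicroRNA precursors are the hairpin transcripts, or pieces of longer transcripts, from which mature microRNAs (miRNAs) are cut. The rat transcriptome array used here carries 1626 transcript clusters whose locus type is Precursor_microRNA, of 68842 clusters in all without the controls, and all 1626 are described here. They were chosen by that annotation alone and not by their signal. The clusters were measured in dorsal root ganglia, the ganglia beside the spinal cord that hold the cell bodies of sensory neurons, of 6 male Sprague-Dawley rats of 180 to 220 g at the start. The 3 diabetic rats had been injected once, intraperitoneally, with streptozotocin at 65 mg/kg, which kills the insulin-producing beta cells, and had been kept in the study at a blood glucose of at least 16.7 mM. The 3 control rats had received the citrate buffer alone, and ganglia of both sides at levels L3 to L6 were pooled within each rat 8 weeks later. Each array was 1 rat. The whole ganglion was taken, so fewer cells of a type and less RNA per cell cannot be told apart.

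A miRNA gene is transcribed as a long primary transcript, often from an intron of a protein-coding host gene. Drosha and DGCR8 cut out the hairpin in the nucleus, Dicer trims it in the cytoplasm, and 1 strand guides Argonaute to messenger RNAs through its seed, the bases 2 to 8 of the mature miRNA. In sensory neurons miRNAs are known to shape excitability, axon growth and the response to injury. The array labels cDNA made from total RNA and its probes lie within the precursor, so a signal stands for RNA that covers the hairpin and not for the mature miRNA.

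The mature sequences below belong to the rat-named precursors on which the results turn, with the seed in capitals. They were taken from RefSeq (assembly GRCr8), which held a hairpin for 362 of the 407 clusters with a rat miRNA name, 324 of them matched by accession. The first pair shares the let-7 seed. The next group holds bright precursors of other families, and miR-338 as the brightest of a glia and myelin list. It also holds those with the smallest p-values between diabetic and control rats among rat-named precursors brighter than background. Some dimmer ones had smaller p-values and are not shown.
rno-let-7f-5p: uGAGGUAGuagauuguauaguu
rno-miR-98-5p: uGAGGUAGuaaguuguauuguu
rno-miR-139-5p: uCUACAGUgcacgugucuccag
rno-miR-26b-5p: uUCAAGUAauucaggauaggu
rno-miR-211-5p: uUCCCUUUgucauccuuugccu
rno-miR-331-3p: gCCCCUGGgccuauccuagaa
rno-miR-465-5p: uAUUUAGAacggugcuggugug
rno-miR-196c-5p: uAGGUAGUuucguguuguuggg
rno-miR-494-3p: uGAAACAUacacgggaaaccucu
rno-miR-338-3p: uCCAGCAUcagugauuuuguuga
rno-miR-297: aUGUAUGUgugcauguaugcaug
rno-miR-466b-5p: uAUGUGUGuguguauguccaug
rno-miR-466b-3p: aUACAUACacacacacauacac
rno-miR-466c-5p: uGUGAUGUguguauguacaug
rno-miR-466d: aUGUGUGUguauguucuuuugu

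The last 5 hold runs of alternating U and G or alternating A and C. The hairpin of Mir297 is shown because its run is the longest among the matched rat hairpins, 12 bases, in capitals.
Mir297 hairpin: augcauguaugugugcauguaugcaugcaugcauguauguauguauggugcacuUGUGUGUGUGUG
The search covered alternating U and G and alternating A and C, and no other of the 362 matched hairpins, which do not include Mir466b or Mir466c, held a run of at least 10 bases. In the mature rno-miR-466b-5p and rno-miR-466b-3p above the longest run was 11 bases. Over the 362 matched hairpins the GC content ran from 28.6% to 81.3%. Across hairpins it had a Spearman rho of -0.04 with the mean signal, a description over hairpins that share the same 6 arrays.

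The names fell into unequal classes. A rat miRNA name was given for 407 clusters and a mouse miRNA name, on a mouse transcript lifted to the rat genome, for 149. The other 1070 had no miRNA name, of which 841 were rat transcripts, 8 AceView transcripts and the others mouse transcripts, and these are called unnamed below. The median span was 91 bases, 1483 clusters had 30 probes, and 32 spanned over 300 bases. The files place 1619 clusters on the genome, and 644 of the 680 clusters whose description states a position on the rat assembly Rnor_6.0 lie exactly there, so positions are given on that assembly.

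Levels were read against 1153 probe sets placed in introns, which serve as background controls. Signals are log2 values, and a precursor was called above background where it exceeded, in all 6 arrays, the 90th percentile of these controls, which was 6.06 to 6.67 by array. This held for 473 precursors, or 29.1%. It held for 21.3% of all clusters, 35.9% of coding clusters, 7.33% of other small RNA clusters, 2.75% of non-coding clusters and 5.98% of the intron controls themselves. A further 116 precursors exceeded it in some arrays, and 1037 in none. Different clusters have different probes, so the order of signals below is not an order of molecule numbers.

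The precursors that carry a rat miRNA name were mostly at background. Only 17 of 407, or 4.18%, exceeded the controls in all arrays, and their median signal was 3.63, below the 4.01 of the intron controls. Of the 149 with a mouse miRNA name 35 did so, or 23.5%. Of the 1070 unnamed precursors 421 did so, or 39.3%, and their median was 5.74.

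**Figure D1:**
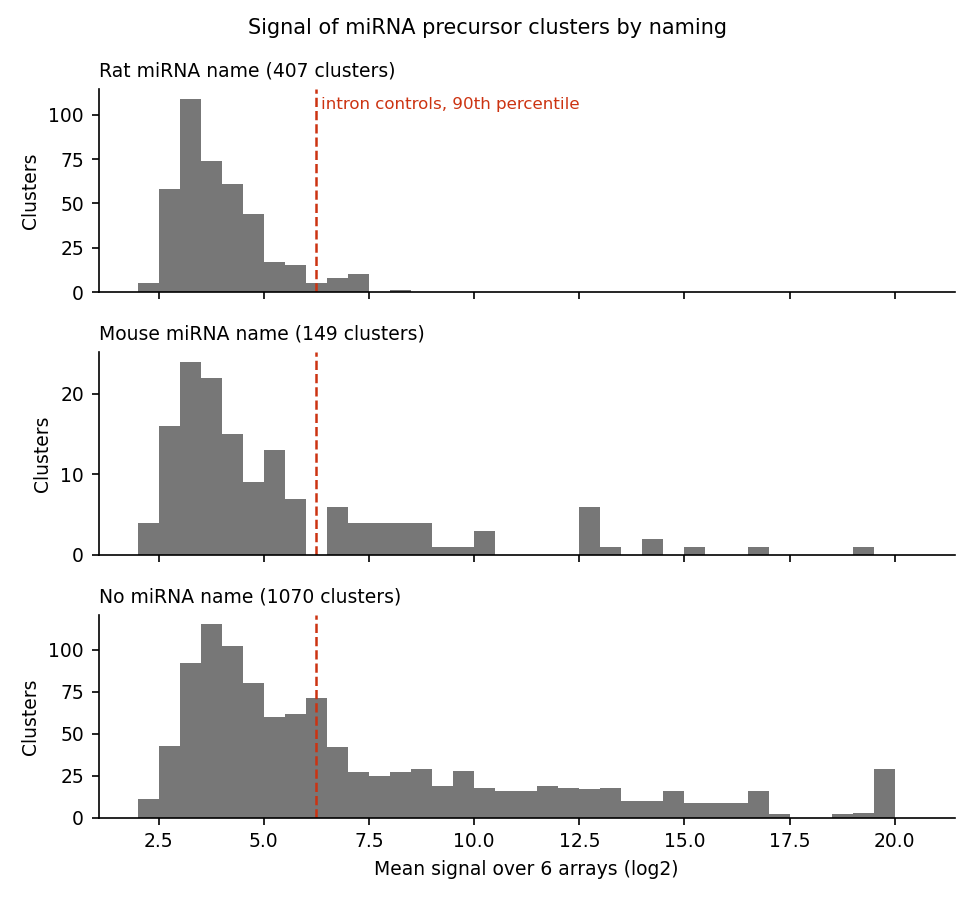
Number of precursor clusters (vertical axis) by mean log2 signal over the 6 arrays (horizontal axis) for clusters with a rat miRNA name, a mouse miRNA name or none; the dashed line is the mean 90th percentile of the intron controls. The rat-named clusters lie almost wholly to the left of the line, while the unnamed ones reach to above 19.

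The 15 highest mean signals all belonged to unnamed rat transcripts. The highest, at chr6:91680226-91680305 on the minus strand, read 19.6, 19.9 and 19.4 in the control arrays and 19.8, 19.9 and 19.9 in the diabetic arrays. Its groups overlapped. These values sit at the top of the scale, where no array read above 19.9, and 31 precursors lay within 0.5 of the highest signal of each array. Only 55 clusters of any class did so, and the other 24 included 11 of the mitochondrial genome, Rn18s (18S ribosomal RNA), Rn7sl1 (the RNA of the signal recognition particle), the neuronal Stmn2 and the tubulin gene Tuba1a. Differences between groups cannot be read at that height.

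Some bright unnamed precursors shared values with others. Among all precursors, 148 clusters fell into 64 sets with identical values in every array, the largest set holding 7. The file places 8 precursors within 200000 bases of Rn18s, which lies at chr14:46643222-46655563, and all 8 had mean signals between 16.5 and 19.7. They shared their values with further clusters, making 20 in all on 4 chromosomes, each with a mean over 16. The cluster at chr14:46652302-46652350 lies inside Rn18s on the same strand and read 15.6, 16.8 and 16.3 in controls and 16.8, 16.8 and 16.9 in diabetic rats. The 6 clusters with values identical to it lie on chromosomes 1, 5, 6 and 14. This set was chosen after its values were seen, and whether ribosomal RNA gives these signals was not tested. In all, 63 precursors had a mean signal over 16, and 61 of them were unnamed. These 61 lay on 15 chromosomes, and 28 of them shared their values with another precursor. The other 2 carried the mouse names Mir3473b, at 19.4, and Mir1187, at 16.9.

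The first rat-named precursor came at rank 335, Mir466c of the repeat-rich group shown above, with a mean of 8.46. Next came Mirlet7f-1, a member of the let-7 family that restrains growth in differentiated cells. It read 7.48, 7.13 and 7.01 in controls and 7.75, 7.62 and 7.24 in diabetic rats (chr17:16418221-16418309), so that the groups overlapped. Its difference, diabetic minus control as everywhere below, was 0.33 with a standard error of 0.17 on the log2 scale (limma adjusted p = 0.67). RefSeq now lists this hairpin, matched by accession, as Mirlet7f-1os.

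Further rat-named precursors above background were Mir139, Mir26b, Mir320a, Mir211, Mir3084c, Mir3084a, Mir598 and Mir494. Mir139 read 6.92, 7.33 and 7.32 in controls and 7.02, 7.28 and 7.23 in diabetic rats. Mir26b read 7.38, 7.22 and 7.11 in controls and 7.23, 7.09 and 6.79 in diabetic rats. Mir211, known from the pigment cell lineage, read 7.32, 6.92 and 7.42 in controls and 6.77, 7.10 and 6.53 in diabetic rats. In these 3 the groups overlapped, and the difference of Mir211 was -0.42 (limma adjusted p = 0.64). Mir598, listed at 2 loci with the same values, read 6.77, 6.88 and 6.78 in controls and 6.36, 6.61 and 6.53 in diabetic rats. Its groups did not overlap, and the difference was -0.31 with a standard error of 0.11 (limma adjusted p = 0.59).

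The labelled tissue was checked against its markers. All 9 sensory neuron markers found exceeded the intron controls, with means from 11.6 to 18.9, as did 3 of 3 satellite glia and 4 of 5 Schwann cell markers. None of 4 spinal cord and none of 2 red blood cell markers did, and 1 of 4 skeletal muscle markers did. Correlations between arrays were 0.993 to 0.997 across clusters. Control replicate 3 stood apart: its array median (4.15) and its 90th percentile of intron controls (6.67) were the highest of the 6 arrays, and differences that rest on it are given also without it.

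Between diabetic and control rats, no precursor passed an adjusted p of 0.05 with limma over all 68842 clusters, and the lowest adjusted p of a precursor was 0.49. Over all clusters 4 passed, which is 0.00581%. At an unadjusted p under 0.05 there were 166 precursors, or 10.2%, against 7.85% of all clusters. Of these 24 were higher in diabetic rats, 1.48% against a background of 2.73%, and the others were lower, 8.73% against 5.11%. The 3 control and 3 diabetic values did not overlap for 189 precursors, or 11.6%, against 13.3% of all clusters.

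The lean towards lower signals depended on the scale of the arrays and on single arrays. As deposited, 71.8% of precursors had a lower mean in diabetic rats, against 61.8% of all clusters, 71.5% of non-coding and 80.1% of other small RNA clusters, with a median difference of -0.10, where all clusters had a median of -0.04 and the intron controls of -0.11. With each array centred on its median over all clusters, 63 precursors were higher and 90 lower at an unadjusted p under 0.05. Together the background was 8.18%. By direction they are 3.87% and 5.54%, against backgrounds of 5.38% and 2.79%, and the median difference was -0.02 against 0.03 over all clusters. Centring on the intron controls turned the count to 114 higher and 60 lower, against backgrounds of 9.11% and 1.5%, and the median to 0.026, against 0.08 over all clusters. Both centrings subtract a single value per array, so they shift the difference of every cluster alike. They cannot change the gap between these medians. Quantile normalization, which is not such a shift, gave a median of -0.06 for the precursors and 0.0045 for all clusters. Without control replicate 3 there were 33 higher and 91 lower, against backgrounds of 2.49% and 3.53%, and the median was -0.04 against -0.01. Other arrays moved these counts by over 1.5 times too, with 72 higher without control replicate 2. The lower count was 242 without control replicate 1, 90 without diabetic replicate 1 and 76 without diabetic replicate 3. Shares over all clusters are not given for these arrays, so whether precursors moved apart from the rest is not shown.

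**Figure D2:**
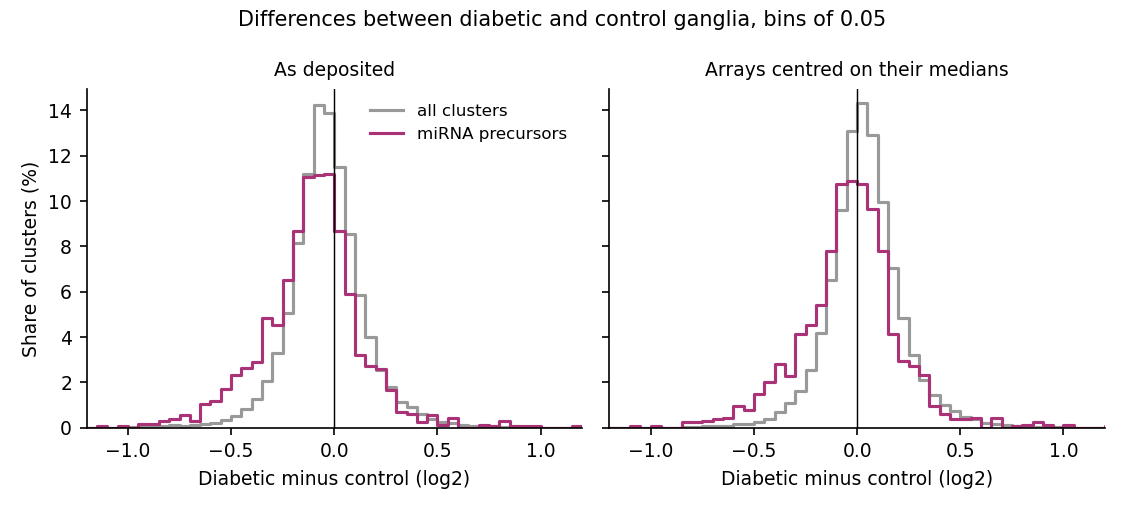
Share of clusters in percent (vertical axis) by the difference diabetic minus control on the log2 scale (horizontal axis), for the 1626 precursors and for all 68842 clusters, as deposited and with arrays centred on their medians. The median of the precursors moves from -0.10 to -0.02. Their lower tail is wider than that of all clusters in both panels, which centring cannot change, since it shifts both curves alike.

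Of the 529 precursors whose mean exceeded the mean 90th percentile of the intron controls, the 8 in each direction with the smallest unadjusted p are described next. None passed the adjusted threshold, their adjusted p in limma running from 0.53 to 0.60. In all 16 the groups did not overlap, which picking by the smallest p favours. Among the 529 this held for 47, and among all clusters for 13.3%. Groups that do not overlap keep their direction whichever array is left out. Median centring shifted every difference by the same amount, which was smaller than any of these 16. Neither could therefore have turned a direction here.

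Mir331 was the only one with a rat miRNA name on the higher side (chr7:34881095-34881190). It read 6.67, 6.68 and 6.29 in controls and 7.43, 6.99 and 7.48 in diabetic rats, so every diabetic value lay above every control value. The difference was 0.75 with a standard error of 0.17 (limma adjusted p = 0.53), and 0.82 with arrays centred. The other 7 were unnamed. The largest difference among them, at chr3:153521726-153521837, was 1.16 with a standard error of 0.30, from 6.15, 6.54 and 5.19 to 6.99, 7.05 and 7.32. Without control replicate 3, its lowest value, the difference was 0.77. A brighter one, at chr11:39496522-39496618, read 11.4, 11.4 and 11.5 in controls and 11.8, 12.0 and 11.9 in diabetic rats.

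The lower side held Mir297, Mir465 and Mir196c. Mir465, of an X-linked group known from the mouse testis, read 7.21, 7.27 and 7.55 in controls and 6.82, 6.90 and 6.58 in diabetic rats, a difference of -0.58 with a standard error of 0.14. Mir196c lies in a Hox gene cluster, as its family does in mammals, and Hox messages are known targets of that family. It read 6.66, 6.25 and 6.87 in controls and 6.04, 5.87 and 5.90 in diabetic rats, a difference of -0.66 with a standard error of 0.16. All 3 diabetic values of Mir196c were at background. Mir297 read 7.21, 7.38 and 7.53 in controls and 6.42, 6.90 and 6.64 in diabetic rats, a difference of -0.72 with a standard error of 0.15. The other 5 on the lower side were unnamed, with differences from -0.82 to -0.50.

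**Figure D3:**
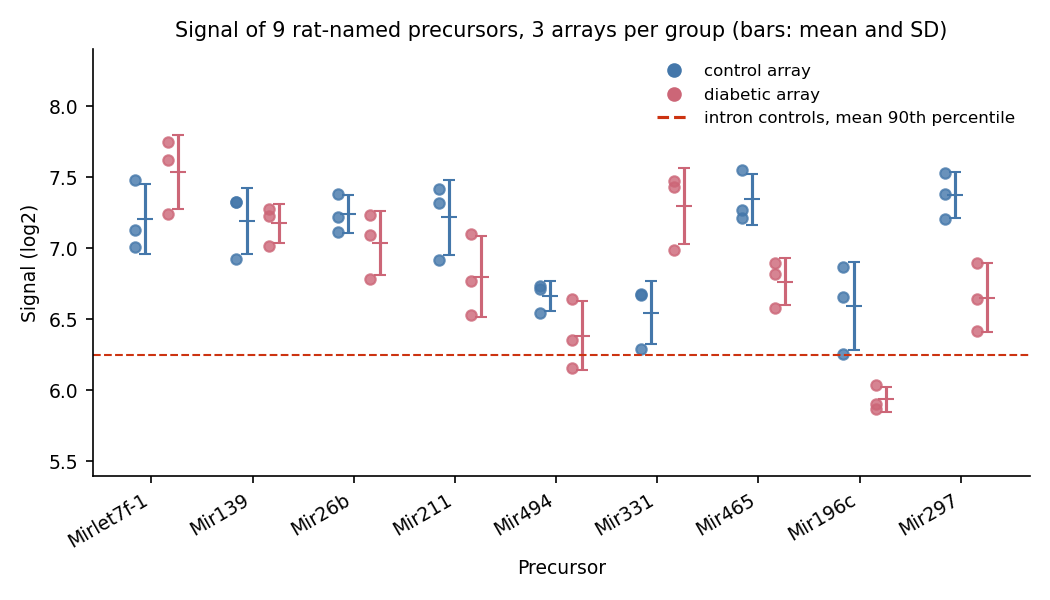
Log2 signal (vertical axis) of 9 rat-named precursors in each control and diabetic array, with the mean and SD of 3 arrays beside the points; the dashed line is the mean 90th percentile of the intron controls. The groups are apart for Mir331, Mir465, Mir196c and Mir297 and overlap for the other 5.

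An unnamed precursor at chr20:27306660-27306772 narrowly missed the filter on the mean, at 6.23 against 6.25. It had the smallest unadjusted p on the higher side, reading 5.46, 5.91 and 5.87 in controls and 6.72, 6.52 and 6.87 in diabetic rats. The groups did not overlap, all 3 diabetic values exceeded the intron controls, and the difference was 0.96 with a standard error of 0.15 (limma adjusted p = 0.50).

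The smallest unadjusted p of all precursors belonged to Mir450a1, which read 4.74, 4.73 and 4.79 in controls and 4.08, 4.17 and 4.10 in diabetic rats, a difference of -0.64 (limma adjusted p = 0.49). None of its values exceeded the background threshold set by the intron controls, though each lay above the median of these controls in its array. Differences below that threshold are not read as changes in RNA here, and whether they reflect RNA was not tested. Mir504 (-0.65), Mir664-2 (-0.71), Mir664-1 (-0.66) and Mir7016 (-0.56) also stayed below the threshold in every array, each without overlap between groups. Of these, all but Mir504 lay above the median of the intron controls in every array. Mir504 did so only in the control rats.

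In 4 precursors the difference exceeded 1 on the log2 scale, and none of them had a miRNA name. The largest, at chr5:27166363-27166396, was 1.78 with a standard error of 0.88 and came from 1 array: it read 5.83, 4.88 and 6.80 in controls and 9.89, 6.69 and 6.28 in diabetic rats. It has 10 probes and had the largest spread within groups of all precursors above the controls by mean. The next largest spreads belonged to a cluster with 3 probes and to one with a single probe, Mir5615-2. The lowest, at chr17:71781347-71781439, was -1.13 and also rested on 1 array, reading 7.88, 7.87 and 10.2 in controls and 7.60, 7.68 and 7.30 in diabetic rats. Without control replicate 3 its difference was -0.35.

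Lists of miRNAs with known roles, matched by exact name, covered 135 clusters in 10 lists. Of these 2 exceeded the intron controls in all arrays. At an unadjusted p under 0.05, 4 were higher and 8 lower, 2.96% and 5.93% against 2.73% and 5.11% of all clusters, and none passed the adjusted threshold. Their median difference was -0.10, as was that of all precursors. Not every listed miRNA was matched: 14 of 16 were in the neuronal list, 27 of 51 in the Dlk1-Dio3 list and 7 of 9 in the let-7 list. It was 7 of 10 for glia and myelin, 11 of 13 for inflammation and injury, 10 of 11 for fibrosis and 17 of 25 for other tissues. Listed miRNAs without a match were not read, so nothing is said of their level.

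The sensory-organ cluster Mir183, Mir96 and Mir182, whose mature miRNAs are known to be rich in dorsal root ganglion neurons, lay at background with means of 3.45, 3.04 and 2.78. Their differences were -0.32, -0.11 and -0.20, and that of Mir96 turned to 0.015 with arrays centred on the intron controls. Of 25 neuronal clusters none exceeded the controls in all arrays. Mir7b came nearest, exceeding them in 5 arrays at a mean of 6.70. Mir138-2, of a miRNA known to limit dendritic spine size, read 5.31, 5.95 and 4.76 in controls and 6.51, 5.61 and 6.07 in diabetic rats, and the groups overlapped.

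The imprinted Dlk1-Dio3 cluster, a run of maternally expressed miRNAs, was represented by 27 clusters from 2.68 to 6.52. Mir494 was the only one above the controls, reading 6.71, 6.55 and 6.73 in controls and 6.35, 6.64 and 6.16 in diabetic rats (-0.28, limma adjusted p = 0.66), and Mir770 came next at a mean of 5.39. Among the 10 let-7 family clusters Mirlet7f-1 alone exceeded the controls. Mir98, which shares the let-7 seed, lay at 5.39 on average with a difference of -0.43 (limma adjusted p = 0.64). These differences had opposite signs and neither passed the test.

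The glia and myelin list peaked at Mir338, which promotes myelination by oligodendrocytes, at a mean of 6.00 with 1 array above the controls, followed by Mir23b at 5.98. In the list of inflammation and injury the highest were Mir34b at 5.96 and Mir142, a miRNA of blood cells, at 4.64. Mir223, known from neutrophils and other myeloid cells, read 3.56, 3.62 and 3.51 in controls and 3.81, 4.03 and 3.75 in diabetic rats, without overlap but at background. The fibrosis list peaked at Mir214 (4.86) and Mir200b (4.51), both at background. In it Mir29c, whose family represses collagens, read 4.04, 4.04 and 4.10 in controls and 4.33, 4.40 and 4.35 in diabetic rats, a difference of 0.30 (limma adjusted p = 0.54). Mir200c of epithelial cells differed by -0.39 (limma adjusted p = 0.53).

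Of the 9 miRNAs in the glucose and insulin list 7 were matched by name. The highest of those matched were Mir210, known from hypoxia, at 5.80 and Mir143 of smooth muscle at 4.99. Mir320a, given earlier as above background, was left out, since the list holds its name without the letter. The growth polycistrons of the Mir17 kind ran from 2.42 to 4.45, with Mir19b2 and Mir363 highest. The miRNAs of other tissues ran from 2.37 to 4.82, with the embryonic Mir292 and the liver miRNA Mir122 highest, at 4.82 and 4.01. The range of the sensory-organ cluster lay within that of these tissues.

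The next group was chosen after its values were seen and has no test. Mir297, Mir466, Mir467 and Mir669, families to which the repeat-rich sequences shown above belong, had 40 clusters with rat or mouse names. Of these 28 exceeded the intron controls in all arrays, or 70.0%, with a median signal of 7.61. In diabetic rats 38 of 40 had the lower mean, where 71.8% of all precursors and 61.8% of all clusters did. The median difference of the 40 was -0.44 as deposited and -0.36 with arrays centred. At an unadjusted p under 0.05 none was higher and 7 were lower, or 17.5%, against 5.11% of all clusters.

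Control replicate 3 carried much of this. It was the highest of the 6 arrays in 34 of the 40 clusters, or 85%, where it was so in 45.2% of all precursors. The median signal of the group was 7.36, 7.78 and 8.30 in the control arrays and 7.37, 7.76 and 7.21 in the diabetic arrays. Without control replicate 3, 34 of 40 were lower and the median difference was -0.19, where 59.1% of all precursors and 54.4% of all clusters were lower. In 3 of the 40 the groups did not overlap, Mir297 among them, which is 7.5% against 13.3% of all clusters. What sets that array apart was not tested.

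**Figure D4:**
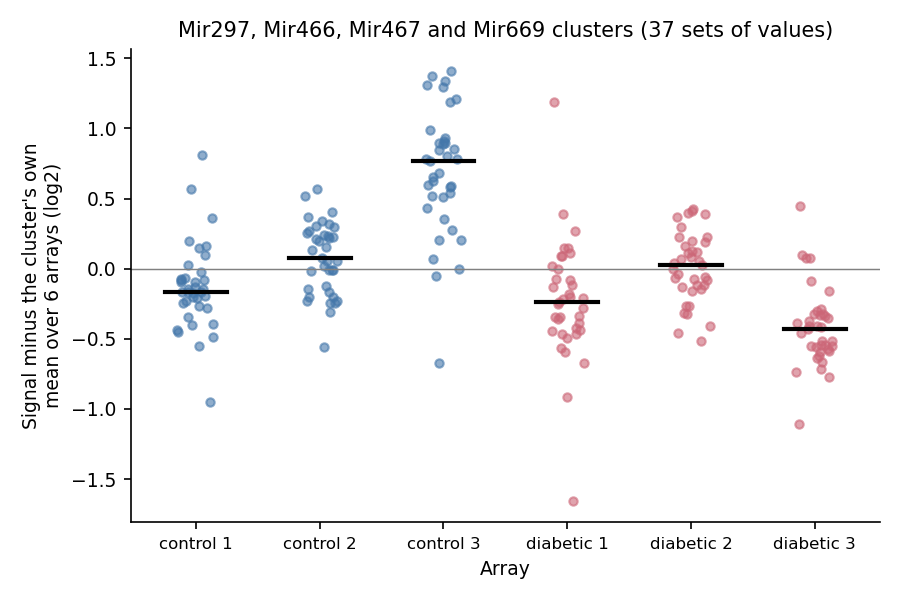
Signal of each Mir297, Mir466, Mir467 and Mir669 cluster minus its own mean over 6 arrays on the log2 scale (vertical axis) in each array (horizontal axis), 1 point for each of 37 distinct sets of values; the black line is the median. The median of control replicate 3 lies above those of the other 5 arrays.

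Positions set the precursors against the protein-coding clusters of the same strand. Wholly inside such a cluster lay 445 precursors, or 27.5% of those placed on the genome, in 315 different clusters, and 340 lay inside one on the opposite strand. Where several clusters contained a precursor, the one of highest mean signal was taken as its host. The median signal of precursors was 4.75 with a same-strand host and 4.68 without. Precursors exceeded the intron controls in 120 of the 445 hosted cases and in 353, or 30.1%, of the others. Among the hosted ones, 26.0% did so where the host itself exceeded the controls in all arrays (56 of 215), and 64 of 230 did so where the host did not. Across the 445 pairs the Spearman rho of the mean signals was 0.02 and that of the differences -0.02, a description over pairs that share arrays and sometimes hosts. Over the 56 pairs in which both exceeded the controls in all arrays, the rho of the differences was -0.41. These include unnamed clusters in the long span named Srsf5, which share 1 host difference and in part have identical values. The rho was not computed without them or without single arrays, so it is not read as a relation.

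The annotation limits this. The median span of a coding cluster was 13750 bases, yet 14 of 24519 spanned more than 2500000 bases, and 57 precursors had such a host. The cluster named Srsf5, a splicing factor gene, spans 93475267 bases of chromosome 6 and took in 24 precursors. With hosts limited to 2500000 bases, a limit set after the spans were seen, 392 precursors had a host.

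Several host pairs known in mammals had a host well above the controls and a precursor at background. Mir204 lies in Trpm3, an ion channel of heat-sensing neurons that read 12.2, 12.0 and 12.1 in controls and 11.9, 12.0 and 12.0 in diabetic rats, while Mir204 ran from 3.32 to 3.68. Mir33 in Srebf2, a regulator of cholesterol synthesis, had a mean of 3.18 while Srebf2 ran from 9.63 to 10.3. Mir103-1 in Pank3, Mir15b in Smc4 and Mir326 in Arrb1 were at background in the same way. Mir218-1 in the axon guidance gene Slit2 ran from 4.49 to 5.20.

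Mir139 in Pde2a and Mir26b in Ctdsp1 were the pairs with a rat name in which precursor and host both exceeded the controls, besides Mir3084a in Sf3b3. Neither differed between groups beyond the spread: Mir139 by -0.02 and Pde2a by -0.07, Mir26b by -0.20 and Ctdsp1 by 0.10. Mir338 in Aatk, a kinase gene of the nervous system, differed by -0.17 and its host by 0.01. Mir211 showed the reverse pattern of levels, since its host Trpm1 read 3.44 to 3.69 in all arrays, at background.

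In 71 pairs precursor and host were both above the controls by mean, and the precursor's difference minus the host's ran from -1.15 to 0.93 with a median of -0.16. In the 57 of them with a host of at most 2500000 bases the range was -1.15 to 0.54 and the median -0.24. These medians rested on single arrays: without control replicate 3 they were -0.051 and -0.11. For the 71 pairs the median was -0.078 without control replicate 2, -0.017 without diabetic replicate 1 and -0.033 without diabetic replicate 3. The lowest was an unnamed precursor at chr10:93818959-93819001 in Tanc2, a synaptic scaffold gene, at -1.03 against 0.11. Next came one at chr3:35019857-35019958 in Kif5c, a kinesin of axonal transport, at -0.52 against 0.45. Without control replicate 3 the gap between precursor and host was -0.84 in Tanc2 and -0.52 in Kif5c. After it came one in the arginine methyltransferase gene Prmt7, was -0.12 against 0.77. Prmt7 read 7.82, 8.32 and 7.60 in controls and 9.02, 8.55 and 8.47 in diabetic rats, without overlap (limma adjusted p = 0.54). On the other side the 3 highest gaps, 0.59 to 0.93, belonged to unnamed precursors inside the span of Srsf5, of which 2 lay at the top of the signal scale, where a difference cannot be read.

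**Figure D5:**
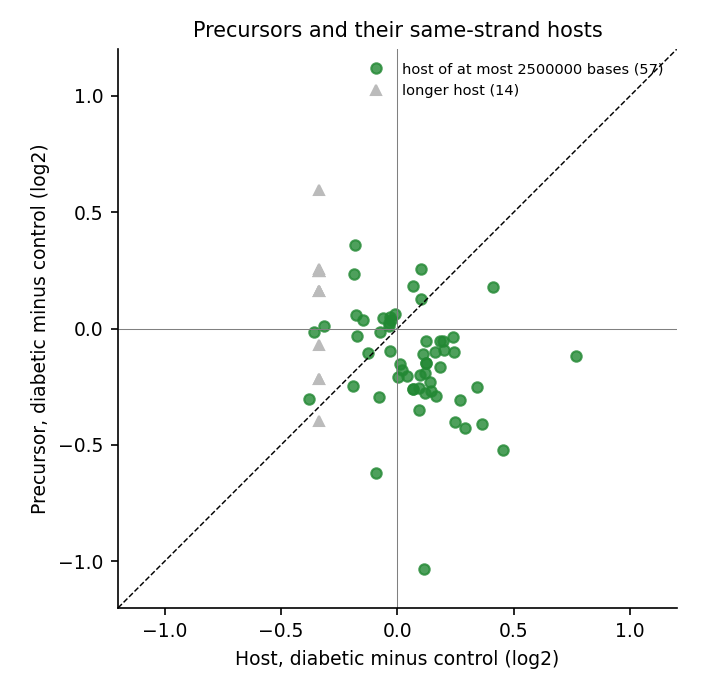
Difference diabetic minus control on the log2 scale of a precursor (vertical axis) and of its same-strand host (horizontal axis) for 71 pairs in which both exceeded the intron controls by mean; triangles are 14 pairs with a host longer than 2500000 bases and the dashed line marks equal differences. Most points lie below the dashed line, the lowest at -1.03 for the precursor in Tanc2.

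Mir335 and its host Mest both had lower signals in diabetic rats, a pair chosen after its values were seen. Mest is an imprinted gene expressed from the paternal copy, and in mouse and human Mir335 lies in its intron. Mir335 (mouse name, chr4:58056087-58056183) read 5.76, 5.25 and 5.98 in controls and 4.51, 4.85 and 4.87 in diabetic rats, a difference of -0.92 with a standard error of 0.19 (limma adjusted p = 0.53). Mest read 12.3, 12.9 and 12.6 in controls and 12.1, 12.2 and 12.0 in diabetic rats, a difference of -0.47 (limma adjusted p = 0.58). Neither gene's groups overlapped and neither passed the threshold. Mir335 did not exceed the background threshold set by the intron controls in any array, though it lay above the median of these controls in every array.

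The coding cluster with most precursors was Sfmbt2 (chr17:71719012-71904195), a Polycomb gene whose intron holds a large run of Mir466, Mir467 and Mir669 hairpins in rat and mouse. It held 44, of which 4 had rat names, 8 mouse names and 32 none, against 24 for Srsf5. Their mean signals ran from 3.44 to 10.4 with a median of 6.70, and 23 exceeded the intron controls. Sfmbt2 itself was at background, reading 3.80, 3.59 and 3.82 in controls and 3.75, 3.70 and 3.57 in diabetic rats.

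In diabetic rats 43 of the 44 had the lower mean, where 71.8% of all precursors and 61.8% of all clusters did. Their median difference was -0.48 as deposited and -0.41 centred, while Sfmbt2 differed by -0.07. At an unadjusted p under 0.05 none was higher and 9 of 44 were lower, against 5.11% of all clusters. The median signal was 6.60, 6.79 and 7.54 in the control arrays and 6.52, 6.62 and 6.12 in the diabetic arrays. Control replicate 3 was again the highest array in 40 of 44, and without it 37 were lower with a median of -0.17. Without that array 59.1% of all precursors and 54.4% of all clusters were lower. In 3 of the 44, or 6.82%, the groups did not overlap, against 13.3% of all clusters. This set and the repeat-named group share 11 clusters and so are not separate evidence.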

How the data were processed

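Total RNA, 100 ng per rat, was made into biotin-labelled cDNA and hybridised to 1 Affymetrix rat transcriptome array per rat, per the labels' protocols. The authors' tables give signals in log2 for each transcript cluster, and the submitters' processing notes name RMA; the genome build is not given in the sources used here beyond the cluster descriptions. Detection calls were not used. Groups were compared with limma 3.58.1 in R 4.3.3 (lmFit, then eBayes with an intensity trend, no covariate) on the deposited log2 values of all 68842 non-control clusters, with Benjamini-Hochberg adjustment over all of them. The method was tested on simulated data first. With 3 arrays in each group an exact permutation test of 1 cluster cannot give p below 0.1. The number of arrays limits the precision.

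Precursors and lists were chosen with earlier results of these data known. Selected by rule were the 15 brightest precursors and the 8 of smallest p in each direction among those above the mean intron control percentile. So were the 2 brightest of each list and the hosts of all these. The 3 most discordant host pairs in each direction and the 3 of largest spread were added. Many of the selected precursors are given only as a group, and most of the hosts are not named. Others are named as members of these lists, or were chosen after their values were seen, as were the precursors above background, those of smallest p at background and those with differences over 1. A host is a same-strand coding cluster that wholly contains the precursor. Where several did, the brightest by mean signal was taken, which favours bright hosts. Alternatives were other scalings, percentiles, filters, weights, variance settings, a replicate block, host rules and leaving out each array.

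The labels state no pairing of the rats by replicate number, and none was used in the main fit. Deviations of same-numbered arrays from their group means correlated at 0.04, -0.12 and -0.13 across clusters. With so few arrays these values cannot exclude a pairing.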

Additional observations from a re-analysis of the deposited data

How the results depend on the processing

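No precursor passed an adjusted p of 0.05 with limma under any scaling, filter or variance setting, or without any one array. Centring the arrays on their medians gave 63 precursors higher and 90 lower at an unadjusted p under 0.05, with 55.7% lower in the mean. Centring on the intron controls gave 114 and 60, 44.8%, and a median of 0.026. Quantile normalization gave 53 higher, or 3.26% against 3.74% of all clusters, and 7.75% lower against 3.93%, with 64.3% lower in the mean against 48.6%. Array weights gave 44 higher, 168 lower and 68.6%. A replicate block gave 37 higher, with the lower count within 1.5 times. Testing only clusters at or above the median level left 2 calls among all clusters and 86 precursors lower, with fewer clusters tested. Leaving out each array gave 1 to 5 calls among all clusters, 16 to 72 precursors higher, 76 to 242 lower, 59.1% to 76.2% lower in the mean and a median of -0.14 to -0.04. For the Mir297, Mir466, Mir467 and Mir669 clusters it gave 34 to 38 lower and medians of -0.64 to -0.19, and for those inside Sfmbt2 37 to 44 and -0.67 to -0.17. The median gap between precursor and host ran from -0.23 to -0.088 over 445 pairs, -0.22 to -0.017 over the 71 pairs and -0.32 to -0.11 over the 57 pairs. These last alternatives, and the limit on host length, were chosen after seeing the data. The 99th percentile of the intron controls left 177 precursors above background, and leaving out each array 473 to 497. Among precursors above background the median signal was 9.78 with a host and 10.5 without, since dim ones are left out. Counts given here without a share over all clusters do not show whether precursors moved apart from the rest. The cause of the other changes was not tested.

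Most named rat miRNA precursors lie at the level of the intron controls, where differences are not read as changes in RNA here. The brightest precursors lie at the top of the scale. Under quantile normalization the differences of the 15 brightest shrank to between -0.02 and 0.03. Among all named precursors the sign turned in 16 alternatives over 8 precursors, Mir96, Mir7b, Mir142, Mir200b, Mir5615-2 and 3 unnamed ones, 1 of them among the 15 brightest. None of the 8 passed the adjusted threshold.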
